A study of Homo sapiens with 6 samples.

Results

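The DNA replication machinery was taken as 55 named genes: the subunits of the origin recognition complex, the licensing factors and their inhibitor, the MCM helicase and its activators, the replicative polymerases with primase, the sliding clamp and its loader, the single-strand binding protein RPA, the enzymes that join lagging-strand fragments, and proteins that rebuild chromatin and DNA methylation behind the fork. Each symbol was matched to an Ensembl identifier, and all 55 were found among the 60612 identifiers of the count table. All 55 also passed the filter on low counts, with 128 to 26470 counts in a library. RNA was sequenced from T24 cells, a human line established from a bladder cancer. In the negative control group, labelled WT, cells carried a lentivirus with a control hairpin. In the group labelled FOXF1-activated, cells carried a hairpin built from a small activating RNA that targets the FOXF1 promoter; FOXF1 encodes a forkhead transcription factor. Both groups went through lentiviral infection, and the labels give selection with puromycin at 3 μg/ml. There were 3 libraries in each group. The labels do not say whether they came from separate cultures or from a clone. The p-values set the difference between groups against the scatter of these libraries, and that scatter may be technical.

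Replication is prepared in G1, when the origin recognition complex binds DNA and, with CDC6 and CDT1, loads the MCM2-7 helicase in an inactive form. In S phase, kinases activate the helicase by adding CDC45 and the GINS complex, polymerase alpha with primase lays down primers, and polymerases delta and epsilon extend them while held on DNA by the PCNA ring. Many of these genes are transcribed under the control of E2F factors as cells prepare for S phase, which is why their RNA is often read as a sign of proliferation.

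FOXF1, the targeted gene, was at 7.51, 7.10 and 7.95 CPM (each gene's share of the scaled library total, as deposited counts per 1e6) in the controls. The libraries labelled FOXF1-activated held it at 5.94, 4.78 and 5.10 CPM. It was thus lower, not higher, under that label (log2 fold change -0.51 ± 0.14 SE, edgeR adjusted p = 0.0109), and every direction given here is that of the libraries labelled FOXF1-activated relative to the libraries labelled negative control. Totals were 72500854 to 77198669 counts per library. Mitochondrial transcripts took 5.04 to 5.43% of counts in the controls and 6.44 to 7.27% under the other label, and their part in the results was not tested. Of 9 urothelial markers, UPK1A, UPK3A and KRT5 had 0 counts in every library and 7 stayed under 1 CPM in all 6. The 9 summed to 56.7 to 61.3 CPM in the controls and 69.2 to 76.4 CPM under the other label. Almost all of that was PPARG (54.2 ± 1.7 to 62.5 ± 3.3 CPM), with FOXA1 next (3.57 ± 0.24 to 8.13 ± 0.91 CPM). The 6 epithelial markers summed to 1657 to 1783 CPM in the controls and to 1160.4 to 1240.0 CPM under the other label, almost all of it from KRT8, KRT18 and KRT7, while CDH1 was at or near 0. The 5 immune markers summed to 19.9 to 26.9 CPM in the controls and to 22.8 to 25.6 CPM under the other label, with single genes moving both ways. CD14 fell from 5.80 ± 0.92 to 0.871 ± 0.394 CPM, while PTPRC (11.6 ± 1.6 to 15.0 ± 0.9 CPM) and CD3E (5.06 ± 1.43 to 7.93 ± 0.65 CPM) rose. The 3 endothelial markers summed to 4.76 to 8.64 CPM and to 4.67 to 13.4 CPM, and of these VWF rose from 0.253 ± 0.137 to 2.97 ± 1.20 CPM, while PECAM1 and CDH5 did not pass the test. The 4 mesenchymal markers, FN1 above all, summed to 33758 to 36311 CPM in the controls and to 4667 to 5100 CPM under the other label. That fall was mainly FN1, which went from 32495 ± 1162 to 2898 ± 38 CPM (log2 fold change -3.49). VIM (-0.59) and CDH2 (-0.49) fell far less. ZEB1 overlapped between groups and was not called (0.04, adjusted p = 0.716 with edgeR). The 6 fibroblast markers summed to 406 to 457 CPM in the controls and to 316, 310 and 495 CPM under the other label. Only LUM passed the test (-0.71, edgeR adjusted p = 0.0320). Within its group, FOXF1-activated replicate 3 was highest for all 6 fibroblast markers and lowest for the 3 endothelial markers. Whether these markers bear on the results was not tested.

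E2F binding sites in promoters are shown first because the genes below are known for them. RefSeq promoter sequences (GRCh38.p14, 250 bases before to 50 bases after the gene's start) were at hand for 49 of the 55 genes, and were searched on both strands for the letters TTTCCCGC or TTTGGCGC. Such a match stood in 18 of the 49 promoters, or 36.7%, against 2.31% of 27305 promoters of all genes and 3.39% of 12769 promoters of tested genes. None of the matches overlapped the other letters searched. They were in 16 of 39 genes that fell, in 1 of 7 that rose and in 1 of 3 that did not pass the test. A match is a description of letters and not a bound site. The promoters of all genes and of tested genes, here and for the letters below, were not matched for base composition. Its part in these shares was not tested. Among the 49 genes with a promoter sequence, 16 fell by more than 2-fold, and 8 of these held a match. Shown here are the matches of those 8, followed by those of CDC6 and CDC25A, which did not fall. Capitals mark the match, 8 bases stand on either side, and each line reads 5′ to 3′ on the strand of the gene. GCGGGAAA and GCGCCAAA are the same letters read on the opposite strand.
PCNA, chr20:5126666-5126689, minus strand: cgtcagggGCGGGAAAaggcgtgc
UHRF1, chr19:4909479-4909502, plus strand: gagttttcGCGGGAAAaaaatcag
CLSPN, chr1:35769968-35769991, minus strand: ctggctggGCGGGAAAgcaagaac
GINS1, chr20:25407670-25407693, plus strand: tttgttcgGCGCCAAAgcgcggag
GINS2, chr16:85688970-85688993, minus strand: tcgccgtgGCGGGAAAacggcggc
GINS3, chr16:58392458-58392481, plus strand: ccccgggcGCGGGAAAcgagtttc
POLA1, chrX:24693773-24693796, plus strand: atcacaggGCGCCAAAcgcgcgtc
POLE2, chr14:49688204-49688227, minus strand: cggcggtgGCGCCAAAtcgcaaat
CDC6, chr17:40287878-40287901, plus strand: cattcggaTTTGGCGCgagcgcgg
CDC25A, chr3:48188446-48188469, minus strand: ggattccgTTTGGCGCcaactagg

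Of the 19 matches, 13 began between 60 bases before and 10 bases after the RefSeq start, and MCM6 held the only pair. Whole windows are given for 3 genes that stand at different ends of the results below: PCNA, which fell and has a match (in capitals), POLD2, which fell furthest and has none, and RFC1, which rose and has none.
PCNA, chr20:5126573-5126872, minus strand: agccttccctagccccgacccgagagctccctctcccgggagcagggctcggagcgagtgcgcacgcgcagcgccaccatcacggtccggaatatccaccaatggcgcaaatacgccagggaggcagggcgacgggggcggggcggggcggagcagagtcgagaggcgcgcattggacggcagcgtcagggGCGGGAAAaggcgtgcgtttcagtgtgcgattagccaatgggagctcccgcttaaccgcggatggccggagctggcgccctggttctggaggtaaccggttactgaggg
POLD2, chr7:44123499-44123798, minus strand: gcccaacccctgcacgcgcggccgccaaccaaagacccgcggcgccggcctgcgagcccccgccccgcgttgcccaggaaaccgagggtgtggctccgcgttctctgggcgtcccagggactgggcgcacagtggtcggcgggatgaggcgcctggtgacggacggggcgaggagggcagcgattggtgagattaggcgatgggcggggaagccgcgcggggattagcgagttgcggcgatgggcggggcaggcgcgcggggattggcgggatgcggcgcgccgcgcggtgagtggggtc
RFC1, chr4:39366313-39366612, minus strand: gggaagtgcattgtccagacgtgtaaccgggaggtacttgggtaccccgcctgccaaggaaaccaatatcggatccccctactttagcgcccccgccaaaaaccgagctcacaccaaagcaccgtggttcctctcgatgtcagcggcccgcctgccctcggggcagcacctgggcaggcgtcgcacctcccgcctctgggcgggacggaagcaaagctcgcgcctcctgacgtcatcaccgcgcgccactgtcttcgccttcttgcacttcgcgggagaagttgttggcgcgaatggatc

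The letters GTAAACA, a core read by many forkhead factors, stood in 0 of the 49 promoters, in 3.41% of all promoters and in 2.56% of those of tested genes. CCAAT, the letters read by NF-Y, stood in 27 of the 49 (55.1%), in 35.7% of all promoters and in 36.2% of those of tested genes. TTTGAA, the cell cycle homology element of late cell cycle genes, stood in 2 of 49 (4.08%), in 15.4% of all promoters and in 10.3% of those of tested genes. These windows are short, so a missing match says only that the letters are not within them.

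Under the FOXF1-activated label most of the replication machinery was lower. Of the 55 genes 45 fell and 7 rose at an edgeR adjusted p under 0.05, while 31.5% of all 20334 tested genes fell and 29.2% rose, or 60.7% in either direction. CDC6, TIPIN and SLBP did not pass. Of those that fell, 19 fell by more than 2-fold, as did 15.9% of all tested genes. All 3 libraries of one label lay below all 3 of the other for 45 genes in the falling direction and for 8 in the rising direction, against 35.3% and 33.5% of tested genes, or 68.8% in either direction. The median log2 fold change was -0.70 over the 55 genes and 0.00 over all tested genes. Their summed level went from 3898 ± 119 to 2755 ± 56 CPM (SD, n = 3 each), or 70.7% of the control level. In bulk RNA, fewer cells in S phase and less RNA per cell cannot be told apart. Among the 14638 genes with at least 1 CPM in 3 libraries, which resemble these genes more in depth, 38.5% fell and 36.7% rose, and 44 of the 55 fell and 8 rose.

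**Figure D1:**
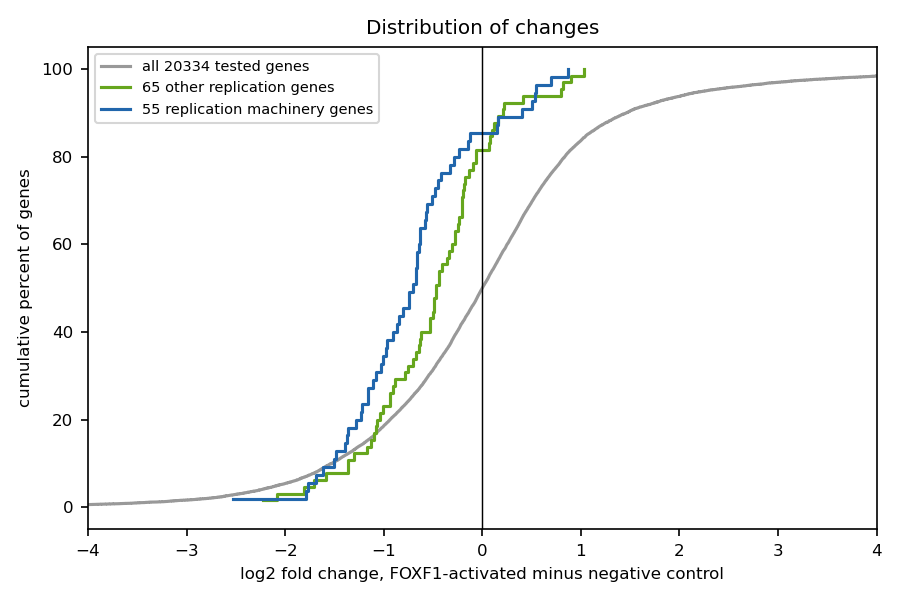
Cumulative percent of genes (y axis) by log2 fold change, FOXF1-activated minus negative control (x axis, cropped at -4 and 4), for all 20334 tested genes, 65 other replication genes and the 55 genes of the replication machinery. The curve of the 55 genes lies left of the curve of all genes over most of its range, with a median of -0.70 against 0.00.

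**Figure D2:**
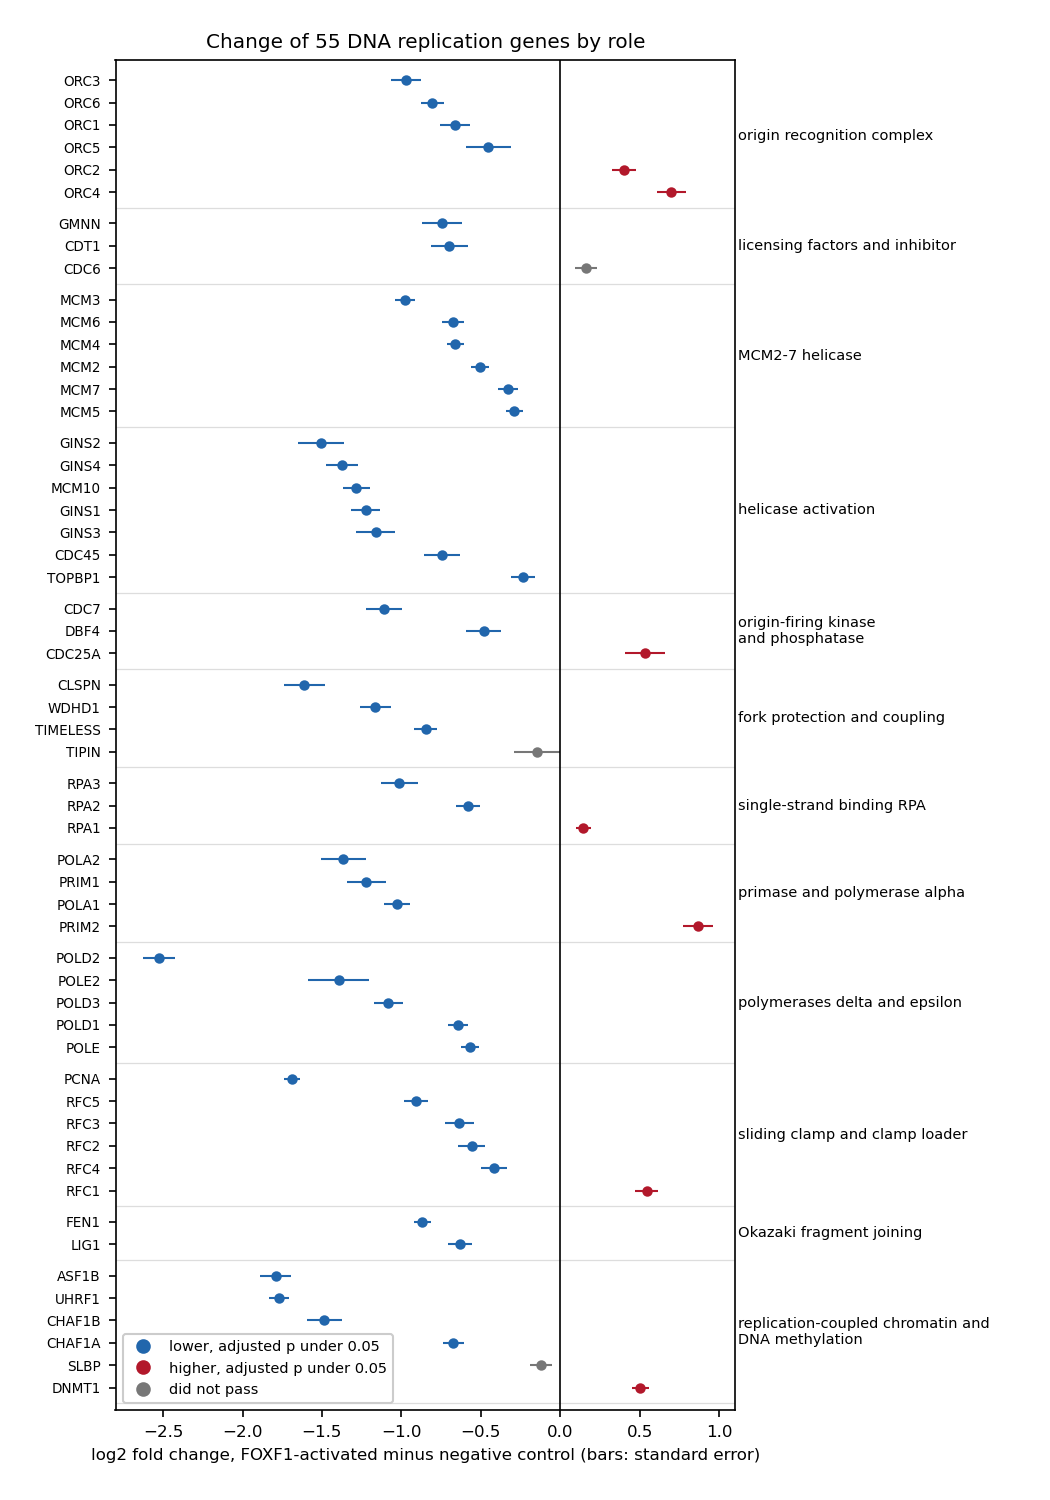
Log2 fold change with its standard error (x axis) of each of the 55 genes, grouped by role; blue points fell, red points rose and grey points did not pass the edgeR test. Each of 6 role groups holds a single rising gene or a pair of them beside falling partners, from PRIM2 at 0.87 to RPA1 at 0.14, and POLD2 stands furthest left at -2.53.

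The origin recognition complex, which marks origins, split by subunit, with 4 genes lower and 2 higher. ORC3 (chromosome 6, 87590067 to 87667453, plus strand; GENCODE 29 on GRCh38, as for all genes here) was at 17.5, 19.7 and 18.9 CPM in the controls and at 9.37, 9.40 and 9.88 CPM under the other label, a log2 fold change of -0.97 (± 0.10 SE, edgeR adjusted p = 1.65e-05). ORC4 (chromosome 2, 147930397 to 148021604, minus strand) was at 32.8, 32.7 and 32.6 CPM and at 58.6, 45.6 and 55.2 CPM, a log2 fold change of 0.70 (± 0.09 SE, edgeR adjusted p = 1.13e-04). The control libraries of ORC4 were nearly equal and its other 3 libraries all lay above them, though more widely spread. ORC2 rose too (0.40). ORC1, the subunit whose level is set by the cell cycle, fell (-0.66), as did ORC6 (-0.81) and ORC5 (-0.45). The ORC5 call, at an edgeR adjusted p of 0.0198, was lost with upper-quartile scaling (adjusted p = 0.0508), on leaving out replicate 2 or 3 of the controls, and on leaving out replicate 1 or 3 of the other label (adjusted p 0.0547 to 0.0716). Since the subunits moved both ways, the summed level of the complex was 152 to 155 CPM in the controls and 139 to 152 CPM under the other label.

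Of the licensing factors, CDT1 and its inhibitor geminin (GMNN) both fell, and CDC6 did not. CDT1, which brings the helicase to origins, was at 39.0, 44.3 and 35.5 CPM in the controls and at 22.3, 28.3 and 22.6 CPM under the other label (log2 fold change -0.70 ± 0.12 SE, edgeR adjusted p = 5.71e-04). GMNN was at 19.3, 21.4 and 19.3 CPM and at 13.7, 10.005 and 11.98 CPM (-0.75 ± 0.13 SE, edgeR adjusted p = 6.06e-04). Groups did not overlap for either gene. With offsets for GC content and transcript length CDT1 moved to -0.37, still called. CDC6, the loading ATPase, was at 84.4, 82.9 and 82.1 CPM and at 86.8, 89.6 and 103 CPM. Its 3 libraries labelled FOXF1-activated lay above the controls by little, and the log2 fold change of 0.16 (± 0.07 SE) missed the threshold (edgeR adjusted p = 0.0667). It passed, in the rising direction, with size factors or the Wald test of DESeq2, upper-quartile scaling, the 1 CPM filter, division of counts by 4, or GC and length offsets, and on leaving out replicate 1 of the FOXF1-activated label (log2 fold change 0.18 to 0.26).

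All 6 subunits of the MCM2-7 helicase, the ring that unwinds DNA, fell, by unequal amounts. MCM3 moved most, from 128, 138 and 129 CPM to 72.1, 63.1 and 65.5 CPM (log2 fold change -0.98 ± 0.07 SE, edgeR adjusted p = 1.10e-06). MCM6 went from 93.8, 107 and 95.1 CPM to 64.8, 58.7 and 62.1 CPM (-0.67), and MCM4 from 240.1, 249.6 and 228 CPM to 155, 149.9 and 149.6 CPM (-0.66). These 3 ended at 51 to 63% of their control level. MCM2 went from 205, 231 and 213 CPM to 157, 152 and 147 CPM (-0.51, edgeR adjusted p = 4.72e-05). MCM7 changed less, from 307, 345 and 307 CPM to 265, 245 and 252 CPM (-0.33, edgeR adjusted p = 0.00113). MCM5 changed least, from 175, 189 and 180.3 CPM to 143, 153 and 150.3 CPM (-0.29, edgeR adjusted p = 0.00112). No library of the lower group reached a control library for any of the 6. With offsets for GC content and transcript length, MCM5 (-0.07, edgeR adjusted p = 0.241) and MCM7 (-0.06, edgeR adjusted p = 0.463) lost their calls, and MCM2 moved to -0.26 with its call kept. MCM5 also moved to -0.19 with upper-quartile scaling, with its call kept.

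Levels of the 6 subunits can be set beside each other per kilobase of exon (CPM divided by the length of all annotated exons). In the controls MCM7 was highest at 72.9 ± 5.0 CPM per kilobase, followed by MCM2 at 44.2 ± 2.6, MCM3 at 36.1 ± 1.6, MCM4 at 34.3 ± 1.6, MCM5 at 24.7 ± 0.9 and MCM6 at 24.0 ± 1.8 (SD, n = 3). MCM3 and MCM4, and MCM5 and MCM6, differed by less than the sum of their SDs. Under the other label the order was MCM7 at 58.0 ± 2.3, MCM2 at 31.1 ± 1.0, MCM4 at 21.7 ± 0.4, MCM5 at 20.3 ± 0.7, MCM3 at 18.3 ± 1.3 and MCM6 at 15.0 ± 0.7 CPM per kilobase. MCM3 thus moved from the third to the fifth place, although MCM5 and MCM3 then differed by less than the sum of their SDs.

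**Figure D3:**
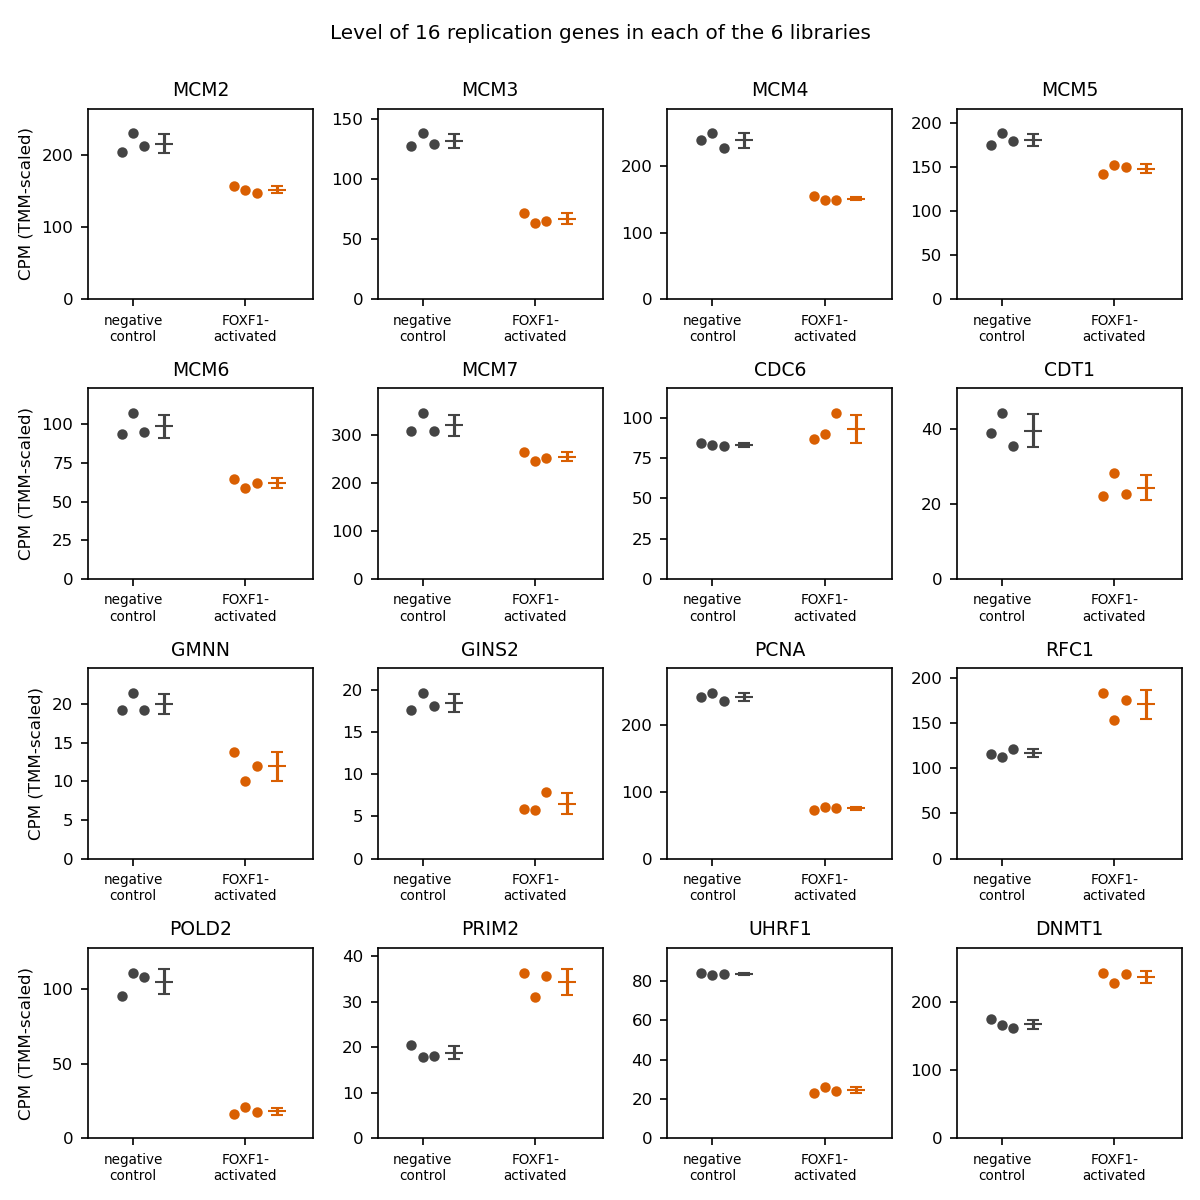
CPM (y axis, from 0) in each of the 3 negative control libraries (grey) and the 3 libraries labelled FOXF1-activated (orange) for 16 replication genes, with mean and SD beside the points. In 12 of the panels the orange points all lie below the grey ones, and for CDC6, RFC1, PRIM2 and DNMT1 they all lie above.

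The factors that turn the loaded ring into an active helicase fell together, all 7 of 7. The 4 GINS subunits, which bridge the helicase and polymerase epsilon, dropped by more than 2-fold. GINS2 (chromosome 16, 85676198 to 85690073, minus strand) was at 17.6, 19.6 and 18.1 CPM in the controls and at 5.82, 5.73 and 7.93 CPM under the other label, a log2 fold change of -1.51 (± 0.14 SE, edgeR adjusted p = 1.24e-05). FOXF1 lies on the same chromosome, as do ORC6, CDT1 and GINS3, and whether position bears on these changes was not tested. GINS4 (-1.37), GINS1 (-1.23) and GINS3 (-1.16) followed. MCM10, a factor for origin activation, fell from 25.5 ± 0.5 to 10.5 ± 0.4 CPM (-1.28), and CDC45, the remaining part of the active helicase, from 41.1 ± 2.5 to 24.5 ± 3.7 CPM (-0.74). TOPBP1, a scaffold of origin firing and of ATR activation, was at 101, 107 and 109.8 CPM and at 97.8, 79.5 and 92.9 CPM. Its groups were close, and the log2 fold change of -0.23 (± 0.08 SE, edgeR adjusted p = 0.0253) was no longer called with DESeq2's size factors (adjusted p = 0.0522), upper-quartile scaling (-0.13, adjusted p = 0.170), the 1 CPM filter (adjusted p = 0.0507), or without negative control replicate 2 or 3 (adjusted p 0.0626 and 0.0763). Without FOXF1-activated replicate 2 it was -0.15 and called.

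Among the regulators of origin firing, the kinase gene CDC7 fell, from 30.7, 30.7 and 28.97 CPM to 14.6, 11.8 and 15.5 CPM (log2 fold change -1.11 ± 0.11 SE, edgeR adjusted p = 1.73e-05). Its activating subunit DBF4 fell less, from 22.2 ± 2.9 to 15.9 ± 0.8 CPM (-0.48). CDC25A, the phosphatase that activates CDK2 at the G1/S transition, rose. It was at 16.1, 13.7 and 13.2 CPM in the controls and at 23.8, 18.1 and 20.4 CPM under the other label, without overlap (0.53 ± 0.12 SE, edgeR adjusted p = 0.00440).

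In the group that protects and couples the fork, CLSPN, the checkpoint mediator claspin, was at 24.5, 23.2 and 25.8 CPM in the controls and at 9.41, 6.77 and 7.88 CPM under the other label. The groups were far apart (log2 fold change -1.61 ± 0.13 SE, edgeR adjusted p = 3.63e-06). WDHD1, known as AND-1, which links polymerase alpha to the helicase, fell from 37.2 ± 0.9 to 16.6 ± 2.0 CPM (-1.16), and TIMELESS from 112 ± 1 to 62.5 ± 6.3 CPM (-0.85). TIPIN, the binding partner of TIMELESS, overlapped between groups at 6.72, 9.16 and 7.71 CPM and 6.76, 7.39 and 7.17 CPM, and did not pass (-0.15 ± 0.15 SE, edgeR adjusted p = 0.418).

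RPA coats single-stranded DNA as a complex of 3 subunits, and their RNAs moved apart. RPA3, the smallest subunit, was at 21.0, 24.0 and 18.4 CPM in the controls and at 10.7, 10.05 and 10.7 CPM under the other label (log2 fold change -1.01 ± 0.12 SE, edgeR adjusted p = 4.10e-05). RPA2 fell less (-0.58). RPA1, the largest subunit, was at 154, 160.2 and 158 CPM and at 176, 172 and 173 CPM. This rise was small though its groups did not overlap (0.14 ± 0.05 SE, edgeR adjusted p = 0.0248). It was not called with library totals only (0.07, adjusted p = 0.243), with no filter (adjusted p = 0.0655), or on leaving out replicate 1 or 3 of the controls or replicate 1 or 3 of the other label (adjusted p 0.0589 to 0.0998), and with upper-quartile scaling it was 0.24.

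Polymerase alpha and primase make the RNA-DNA primers, and 3 of their 4 subunits fell by more than 2-fold. POLA2, the accessory subunit, was at 33.5, 32.2 and 30.5 CPM in the controls and at 15.3, 11.97 and 10.1 CPM under the other label (log2 fold change -1.37 ± 0.14 SE, edgeR adjusted p = 2.14e-05). PRIM1, the catalytic primase subunit (-1.22), and POLA1, the catalytic polymerase subunit (-1.03), fell as well. PRIM2, the large primase subunit (chromosome 6, 57314805 to 57646849, plus strand), went the other way and had the largest rise of the 55 genes. It was at 20.5, 17.8 and 18.1 CPM in the controls and at 36.4, 31.0 and 35.5 CPM under the other label, with a wide gap between the groups (0.87 ± 0.09 SE, edgeR adjusted p = 3.10e-05). The annotated copy PRIM2BP held 2 counts over all libraries, against 11771 for PRIM2, so reads assigned to that copy were few, although reads shared between copies could have been assigned to either.

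All 5 polymerase delta and epsilon genes among the 55 fell. POLD2, the second subunit of polymerase delta (chromosome 7, 44114681 to 44124358, minus strand), had the largest change of the machinery. It was at 95.8, 111 and 108 CPM in the controls and at 16.3, 20.8 and 17.7 CPM under the other label, or 17.4% of the control level (log2 fold change -2.53 ± 0.10 SE, edgeR adjusted p = 6.04e-08). POLD3 (-1.08) and the catalytic subunit POLD1 (-0.65; -0.32 with GC and length offsets) fell less. POLD4, the smallest subunit of the same polymerase and not among the 55, fell from 40.5 ± 0.8 to 11.5 ± 1.5 CPM (-1.81, edgeR adjusted p = 3.72e-07). The genes of this polymerase thus fell to very different degrees. In polymerase epsilon, POLE, the catalytic subunit, was at 166, 165 and 163 CPM and at 106, 109.7 and 118 CPM (-0.57 ± 0.06 SE, edgeR adjusted p = 1.61e-05). POLE2, the gene with the lowest level per kilobase of the 55 in both groups, went from 5.65 ± 0.36 to 2.15 ± 0.42 CPM (-1.40). The epsilon subunits POLE3 and POLE4 are not among the 55 and were named after their values were seen. POLE3 fell little (-0.21, edgeR adjusted p = 0.0246). POLE4 overlapped between groups and was not called (0.07, edgeR adjusted p = 0.662).

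PCNA, the ring that tethers polymerases to DNA (chromosome 20, 5114953 to 5126626, minus strand), was at 243, 249 and 236 CPM in the controls and at 73.0, 77.4 and 75.8 CPM under the other label. The spread within groups was small beside the gap (log2 fold change -1.69 ± 0.05 SE, edgeR adjusted p = 1.97e-08). Per kilobase of exon it was the most abundant of the 55 genes in the controls at 165 ± 4 CPM and came second, after MCM7, at 51.3 ± 1.5 CPM under the other label. Its loader, replication factor C, split between the large subunit and the small ones. RFC1, the large subunit, rose from 116, 112 and 122 CPM to 183, 153 and 175 CPM (0.55 ± 0.07 SE, edgeR adjusted p = 1.16e-04). RFC5 (-0.91), RFC3 (-0.64), RFC2 (-0.56) and RFC4 (-0.42), the small subunits, all fell.

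The enzymes that finish lagging-strand fragments both fell. FEN1, the flap nuclease, was at 124, 134 and 125 CPM in the controls and at 69.7, 71.3 and 69.0 CPM under the other label (log2 fold change -0.87 ± 0.05 SE, edgeR adjusted p = 6.78e-07). LIG1, the DNA ligase that seals the nicks, was at 51.9, 51.0 and 46.6 CPM and at 29.8, 34.4 and 32.3 CPM (-0.63 ± 0.08 SE, edgeR adjusted p = 7.00e-05). Neither gene overlapped between groups.

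Of the genes that restore chromatin and methylation behind the fork, 4 of 6 fell, 3 of them by more than 2-fold. ASF1B, a histone H3-H4 chaperone, was at 48.8, 52.2 and 45.7 CPM in the controls and at 12.5, 15.6 and 14.2 CPM under the other label (log2 fold change -1.79 ± 0.10 SE, edgeR adjusted p = 3.54e-07). UHRF1, which recruits DNMT1 to newly copied DNA, was at 84.4, 83.1 and 83.5 CPM and at 23.2, 26.0 and 24.2 CPM (-1.77 ± 0.06 SE, edgeR adjusted p = 3.67e-08). Both ended under a level of 30% of the control. DNMT1, the maintenance methyltransferase itself, rose from 175, 166 and 162 CPM to 244, 228 and 242 CPM, again without overlap (0.50 ± 0.05 SE, edgeR adjusted p = 2.81e-05). Of the chromatin assembly factor subunits, CHAF1B (-1.48) had a lower value than CHAF1A (-0.67; -0.42 with GC and length offsets). SLBP, which binds the ends of replication-dependent histone transcripts, overlapped between groups and did not pass (-0.12, edgeR adjusted p = 0.154), but was called lower with library totals only (-0.20, adjusted p = 0.0261).

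Ratios of partner genes within each library show how far partners moved apart, and do not depend on library scaling. Each of 10 ratios was compared with an exact two-sided permutation test over the 6 libraries, whose smallest possible p is 0.1, or 0.125 after Benjamini-Hochberg adjustment over the 10, so no ratio could pass 0.05. UHRF1 to DNMT1 was 0.482, 0.499 and 0.517 in the controls and 0.0952, 0.114 and 0.10001 under the other label, a difference of -2.28 on the log2 scale (exact p = 0.1). PCNA to RFC1 was 2.09, 2.21 and 1.94 and then 0.398, 0.505 and 0.433, a difference of -2.23. For both pairs every library of one label lay apart from every library of the other. ORC1 to ORC2 differed by -1.07, POLE2 to POLE by -0.84, CHAF1B to CHAF1A by -0.81, and MCM7 to MCMBP, a protein that binds MCM subunits outside chromatin, by -0.26, all on the log2 scale and all at the smallest p. TIPIN to TIMELESS (0.72) and DBF4 to CDC7 (0.64) went up, also at the smallest p. CDT1 to its inhibitor GMNN was 2.03, 2.07 and 1.84 in the controls and 1.62, 2.83 and 1.88 under the other label, so that the groups overlapped (log2 difference 0.06, exact p = 0.9). That difference was -0.18 without FOXF1-activated replicate 2. POLA2 to POLA1 also overlapped (-0.36, exact p = 0.3). The SD of the log2 ratio of CDT1 to GMNN was 0.09 in the controls and 0.42 under the other label, with 3 libraries in each.

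**Figure D4:**
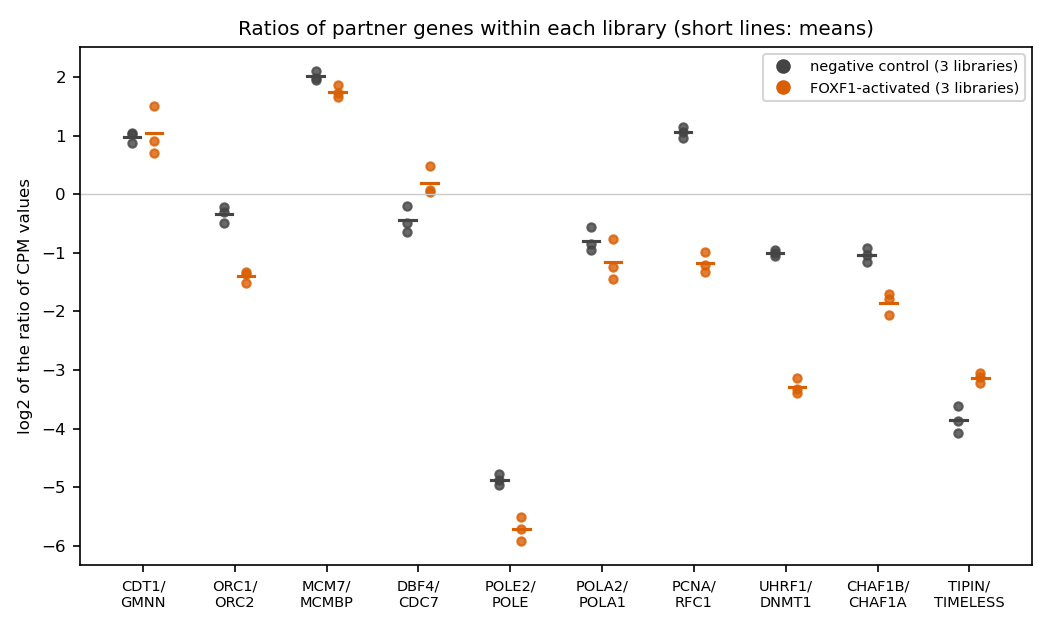
Log2 of the ratio of CPM values (y axis) of 10 pairs of partner genes in each negative control library (grey) and each library labelled FOXF1-activated (orange), with short lines for the means. The largest gaps are those of PCNA to RFC1 (-2.23) and UHRF1 to DNMT1 (-2.28), while CDT1 to GMNN and POLA2 to POLA1 overlap.

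The 7 genes that rose were ORC2, ORC4, CDC25A, RPA1, PRIM2, RFC1 and DNMT1, chosen as a group by that outcome and described without a test. Their longest annotated transcripts had a median length of 4340 bases and a median GC content of 41.7%, against 3240 bases and 48.0% for the 45 that fell and 2935 bases and 48.4% for all tested genes with a transcript. Ranges overlapped widely, at 2308 to 6710 bases for those that rose and 1262 to 8011 bases for those that fell. Across the 55 genes Spearman's rho of the log2 fold change with transcript length was 0.17 and with GC content -0.07. With offsets for both properties 43 of the 55 fell and 8 rose.

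Other genes of replication, 65 genes in 7 lists, fell for 43 (66.2%) and rose for 7 (10.8%), against 31.5% and 29.2% of all tested genes. A further 15 did not pass, and the median log2 fold change was -0.47. The lists were chosen with earlier results of these data known, so these counts are a description and not an independent check. The same shares of all tested genes stand behind the count of each list, and the lists are short. Initiation and polymerase partners fell for 8 of 13, with POLD4 lowest, and 1 rose, LRWD1, which stabilises the origin recognition complex on chromatin (0.90, from 31.4 ± 3.3 to 58.5 ± 8.3 CPM). Alternative clamp loaders and PCNA partners fell for 8 of 11 and rose for 0. In that list DSCC1, of the loader that acts in cohesion, was at -1.36, and the nuclease gene DNA2 was highest at 0.10 without a call. Among genes for the turnover of CDT1 and cell cycle proteins, 5 of 7 fell and 2 rose. FBXO5, which encodes the APC/C inhibitor EMI1, fell from 30.0 ± 3.8 to 7.05 ± 1.47 CPM (-2.09), and the cullin gene CUL4B rose from 174 ± 12 to 304 ± 26 CPM (0.80).

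Histone chaperones fell for 6 of 8 and rose for 1, from RBBP4, a histone-binding subunit shared with the chromatin assembly factor (-1.08), to the acetyltransferase gene HAT1 (0.21, edgeR adjusted p = 0.0420). The libraries of HAT1 overlapped between groups. Checkpoint genes fell for 5 of 9 and rose for 2. Within the checkpoint clamp RAD1 fell (-0.93) while HUS1 rose (0.82). RAD9A, the third clamp subunit, rose as well, though its libraries overlapped between groups (0.42, edgeR adjusted p = 0.0422); it was named after its value was seen. Enzymes of deoxynucleotide supply fell for 7 of 9 and rose for 0. RRM2, the small subunit of ribonucleotide reductase, went from 151 ± 10 to 50.2 ± 3.6 CPM (-1.59), whereas RRM2B, its p53-regulated counterpart, was at -0.18 without a call (edgeR adjusted p = 0.0804). Topoisomerases and cohesion genes fell for 4 of 8 and rose for 1. TOP2A, which untangles copied DNA, fell from 279 ± 18 to 59.5 ± 4.1 CPM (-2.23), and TOP1, which relaxes supercoils ahead of the fork, rose from 192 ± 7 to 393 ± 39 CPM (1.03, edgeR adjusted p = 1.78e-06).

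Several genes share exonic bases with a neighbour, and the strand setting of the counting is not given in the sources used here. Overlap with another annotated gene was found for 25 of the 55, and for 13 of them a neighbour held at least 0.1 times the counts of the gene. Some of these neighbours moved the opposite way. NACA rose (0.34) beside PRIM1 with 33 shared bases, WSB2 rose (0.60) beside RFC5 with 186, MORC3 rose (0.39) beside CHAF1B with 89, and SMYD4 fell (-0.31) beside RPA1 with 156. Others moved the same way. GSE1 fell (-1.24) beside GINS2 with 7 shared bases, SLC25A40 fell (-1.15) beside DBF4 with 142, FADS2 fell (-1.80) beside FEN1 with 49, UBXN6 fell (-0.47) beside CHAF1A with 20 and TPRA1 fell (-0.22) beside MCM2 with 45. The locus AP000944.2 shares 2012 bases with POLA2 on the same strand and fell (-0.64), so counts of this pair are uncertain. ACVR2A rose (0.33) beside ORC4 with 430 shared bases, while MBD5 beside ORC4, UMAD1 beside RPA3 and EIF4A2 beside RFC4 did not pass the test. NACA held 34.5 times the counts of PRIM1, on the same strand. EIF4A2 held 13.2 times the counts of RFC4, on the opposite strand. Whether reads of these neighbours entered the counts of PRIM1 and RFC4 was not tested. Pseudogene copies of 11 of the genes were in the table, and the fullest of them, DBF4P1, held 64 counts in all against 8576 for DBF4. How reads that fit several copies were treated is not given in the sources used here.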

How the data were processed

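The deposited table holds whole-number counts per Ensembl gene, unnormalised, for 6 libraries of ribosome-depleted total RNA with dUTP strand marking, per the labels' protocols. Per the submitters' processing notes the tools were cutadapt 1.9 and TopHat2 2.0.4 on GRCh38. For the counting tool, strand setting and annotation, the answer is not given in the sources used here. Counts of 4, 8 and 12 were over-represented (2.36, 1.94 and 1.60 times their neighbours), so depth may be overstated. Groups came from the sample titles.

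Genes were filtered with filterByExpr (minimum count 10, minimum total 15), leaving 20334, scaled by TMM and compared with edgeR 4.0.16 (quasi-likelihood test, Benjamini-Hochberg adjusted p under 0.05, no covariates) in R 4.3.3. Standard errors are the log2 fold change over the square root of F. Symbols came from a gene name table and coordinates from GENCODE 29, which held 58394 of the identifiers. Promoters came from RefSeq, and the bases after the start were found in a transcript of the gene, in the printed orientation, for 42 of the 49. Every one of the 55 genes is named. Library values are given for PCNA, MCM2 to MCM7, CDT1, GMNN, CDC6, GINS2 and the extremes of each role group. In the other lists the extremes are named. The genes and lists were chosen with earlier results of these data known. Alternatives used DESeq2 1.42.0 and limma 3.58.1. No libraries were duplicates: within each group every pair differed beyond sampling noise (chi-square per degree of freedom 19.5 to 33.4). Overstated depth would raise these values, and divided by 4 they were 4.88 to 8.34.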

Additional observations from a re-analysis of the deposited data

How the results depend on the processing

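Over 16 alternatives, 43 to 46 of the 55 genes were lower and 6 to 8 higher, and no gene changed sign. Of the 55 genes 48 kept their call or lack of one throughout, the exceptions being ORC5, CDC6, MCM5, MCM7, TOPBP1, RPA1 and SLBP, described above. Of the 65 other replication genes, 37 (upper-quartile scaling) to 50 (library totals only) were lower and 5 to 9 higher. Among called genes, log2 fold changes moved by over 1.5 times for CDT1, MCM2, MCM5, MCM7, TOPBP1, RPA1, POLD1 and CHAF1A, as given above. The median log2 fold change ranged from -0.78 (library totals only) to -0.60 (-0.600 with upper-quartile scaling, which moved the median of all genes by 0.10). The targeted gene FOXF1 stayed lower and called in all 16 (adjusted p 0.00508 to 0.0375). Offsets for GC content and length were chosen after seeing the data. The ratio of CDT1 to GMNN ranged from -0.18 (reversed, without FOXF1-activated replicate 2) to 0.23 (without FOXF1-activated replicate 1) when single libraries were left out. Replicate numbers showed no sign of pairing the libraries: deviations of same-numbered libraries correlated at -0.02, -0.00 and -0.02. These correlations run over all tested genes, so noise in single genes could hide a shared culture or batch. With the replicate block 45 genes were lower, 7 higher and 11790 of all genes called, against 12351 without it. With counts divided by 4 the counts were 45 and 8. The lowest count of any of the 55 genes in a library was 128, and the true depth may be lower than the counts, given the excess of counts of 4, 8 and 12. The cause of differences between alternatives was not tested.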
